A study of Mus musculus with 9 samples.

Results

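Phosphatidylcholine synthesis and methyl-group metabolism were followed through 10 genes in mouse liver: Pemt, Pcyt1a, Chka, Chkb, Cept1, Gnmt, Mat1a, Ahcy, Bhmt and Chdh. Pemt was chosen by its measured values, a level above the controls with both drugs of the study, so its difference from the controls is described here without a test. The other 9 genes were listed for their place in phosphatidylcholine and methionine metabolism. All 10 were found among the 32285 genes of the table, and all 10 were among the 12100 genes that entered the tests, those averaging 10 normalized counts or more. The livers came from male Tet-OFF mice labelled 4 weeks old, the age at which the paper's mice were given the drugs. These carry CAG-CreERT2 on a piggyBac transposon and, at Rosa26, both LSL-tTA (loxP-stop-loxP before tTA) and tetO-Venus-ires-mCherry. Every group, the controls included, had received tamoxifen, which removes the stop cassette. Control mice were compared with mice given Dox (doxycycline hyclate) or Tc (tetracycline hydrochloride), each at 2 mg/mL in drinking water with sucrose for 7 days, and 3 libraries were sequenced per group. The water of the controls and the number of livers per library are not given in the sources used here. The mice were derived from targeted embryonic stem cells, and CreERT2 was driven by the broadly active CAG promoter. The paper reports reporter signal in the liver of tamoxifen-treated Tet-OFF mice without drug, and repression of the reporter by Dox and by Tc. No sequenced group had the transgene off without a drug, so drug and transgene state are not separated in any comparison with the controls. The transgene was not analysed here, and its part in the differences from the controls was not tested.

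Phosphatidylcholine is the main phospholipid of hepatocyte membranes, of secreted lipoproteins and of bile. Liver makes it by 2 routes. In the CDP-choline route, choline kinases (Chka, Chkb) phosphorylate choline, Pcyt1a makes CDP-choline, and Cept1 joins it to diacylglycerol. In the other route, PEMT adds methyl groups from S-adenosylmethionine to phosphatidylethanolamine. Mat1a makes S-adenosylmethionine in adult hepatocytes, Gnmt uses it to methylate glycine, and Ahcy cleaves the S-adenosylhomocysteine that every methyl transfer leaves. Chdh oxidises choline towards betaine, and Bhmt passes a methyl group of betaine to homocysteine, which restores methionine.

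Depth ranged from 8250804 to 10912338 reads on genes in the control libraries, from 7426136 to 10330238 in the Dox libraries and from 10216627 to 12183041 in the Tc libraries. Values are normalized counts (each library's counts over its own size factor), and levels were compared between genes only per kilobase of exon. In every group, library 3 nearly equalled libraries 1 and 2 added with weights, fitted at 58.4% and 41.7% in the controls, 61.4% and 34.4% with Dox and 61.0% and 37.0% with Tc. Adjusted p-values from all 9 libraries are therefore too small, and values without the 3 libraries numbered 3 are given beside them. The hepatocyte markers were expressed in every library, with a summed level of 1198250 to 1668090 normalized counts in the controls, 454444 to 834520 with Dox and 822525 to 1330160 with Tc over the 7 markers in the table. Most of that sum was Alb, which encodes albumin. The markers did not move together with Dox. Alb and Fgb were below every control in all 3 Dox libraries, and Cps1 was above every control in all 3. The Dox libraries of Apoa1, Ttr, Serpina1c and Hnf4a lay on both sides of the controls. The part of these markers in the results below was not tested, and in bulk liver fewer cells of a type and less RNA per cell cannot be told apart. Scaling every library to the same total moved the median difference of all genes by 0.17 on the log2 scale for Dox against control and by 0.16 for Dox against Tc.

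The promoter windows of Pemt, Bhmt and Etnppl are shown because these genes carry the differences described below. Etnppl degrades phosphoethanolamine, the head group of the lipid that PEMT methylates. Windows run from 250 bases before to 50 bases after a RefSeq start on GRCm38.p6, 5′ to 3′ on the strand of the gene. Capitals mark the motifs searched on both strands, with CCAAT read as ATTGG on the opposite strand. Pemt has 2 RefSeq starts, on the minus strand of chromosome 11, at chr11:60040139-60040438 and chr11:60036956-60037255. The GENCODE gene used for the distances below starts further upstream, at chr11:60046489, and no window was searched there.
Pemt start 1: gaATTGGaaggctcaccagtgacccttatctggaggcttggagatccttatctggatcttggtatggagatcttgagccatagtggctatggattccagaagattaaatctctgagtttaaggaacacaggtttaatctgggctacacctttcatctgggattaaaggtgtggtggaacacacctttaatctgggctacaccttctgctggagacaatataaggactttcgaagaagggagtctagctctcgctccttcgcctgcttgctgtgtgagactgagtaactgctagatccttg
Pemt start 2: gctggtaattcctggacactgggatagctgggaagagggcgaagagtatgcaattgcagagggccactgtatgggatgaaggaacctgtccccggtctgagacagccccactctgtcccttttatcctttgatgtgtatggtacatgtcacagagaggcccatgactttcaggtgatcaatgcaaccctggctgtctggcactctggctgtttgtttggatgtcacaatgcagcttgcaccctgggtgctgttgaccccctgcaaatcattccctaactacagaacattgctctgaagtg
Bhmt lies on the minus strand of chromosome 13, with its window at chr13:93637709-93638008.
Bhmt: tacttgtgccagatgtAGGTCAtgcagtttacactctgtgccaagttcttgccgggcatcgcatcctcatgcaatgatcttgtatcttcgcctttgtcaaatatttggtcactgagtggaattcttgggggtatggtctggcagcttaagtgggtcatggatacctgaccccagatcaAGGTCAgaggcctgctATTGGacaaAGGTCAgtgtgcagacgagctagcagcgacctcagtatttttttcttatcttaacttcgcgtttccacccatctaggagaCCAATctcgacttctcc
Etnppl lies on the plus strand of chromosome 3, and the window of the first of its 2 starts is chr3:130617198-130617497.
Etnppl start 1: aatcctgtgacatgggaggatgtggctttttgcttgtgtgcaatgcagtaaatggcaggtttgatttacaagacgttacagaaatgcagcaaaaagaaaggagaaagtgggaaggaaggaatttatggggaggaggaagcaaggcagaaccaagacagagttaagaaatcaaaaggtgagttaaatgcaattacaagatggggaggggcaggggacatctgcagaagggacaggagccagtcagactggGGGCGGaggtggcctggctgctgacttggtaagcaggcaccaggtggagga
The Bhmt window held AGGTCA 3 times, a motif present in 16.3% of 32851 mouse promoter windows of the same length and at 3 or more positions in 0.183% of them. It also held CCAAT 2 times, once on each strand, and 37.4% of all windows hold that motif. The Pemt window at start 1 held 1 CCAAT on the opposite strand near its far end, and the window at start 2 held none of the 6 motifs searched. The Etnppl window held 1 GGGCGG, a motif found in 35.7% of all windows. TATAAA, searched as well, was found in 13.6% of all windows and in none printed here. CACGTG was found in 7.15% of all windows and likewise in none of these. The longest motif, TGATGCAA, was found in 0.895% of all windows and in none of these. Of the 10 genes, 9 had RefSeq windows, 16 in all. Mat1a had none in the table used.

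Pemt was higher in every library of both drugs than in any control library. Its normalized counts were 306, 452 and 404 in control libraries 1 to 3. With Dox they were 2022, 1155 and 1590, and with Tc they were 1924, 1182 and 1866. The lowest drug library thus stood at 1155 and the highest control library at 452, with no overlap for either drug. Library 2 was the lower of libraries 1 and 2 with each drug, and the higher of the pair in the controls. On the scale of log2(normalized count + 1), the difference from the controls was 2.01 ± 0.27 (SE, n = 3 libraries per group) for Dox and 2.08 ± 0.27 for Tc, or 4.04-fold and 4.22-fold. Without libraries 3 the differences were 2.04 and 2.02. Since Pemt was picked for these differences, no test is attached to them.

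Dox against Tc compares a drug with its parent structure at the same dose and duration, doxycycline being a derivative of tetracycline. The choice of Pemt did not use this difference, but it used the Dox and Tc values behind it. A gene raised by a single drug would not have been chosen, so the adjusted p below is not free of that choice. Pemt differed by -0.06 ± 0.27 on the log2 scale (Dox minus Tc; 95% interval -0.67 to 0.54; limma adjusted p = 0.895). The interval thus spans differences in either direction, and it widened to -1.01 to 1.05 without libraries 3, where the value was 0.02. The sign of the Pemt difference depended on the scaling and on the library left out, and no setting passed the test.

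**Figure D1:**
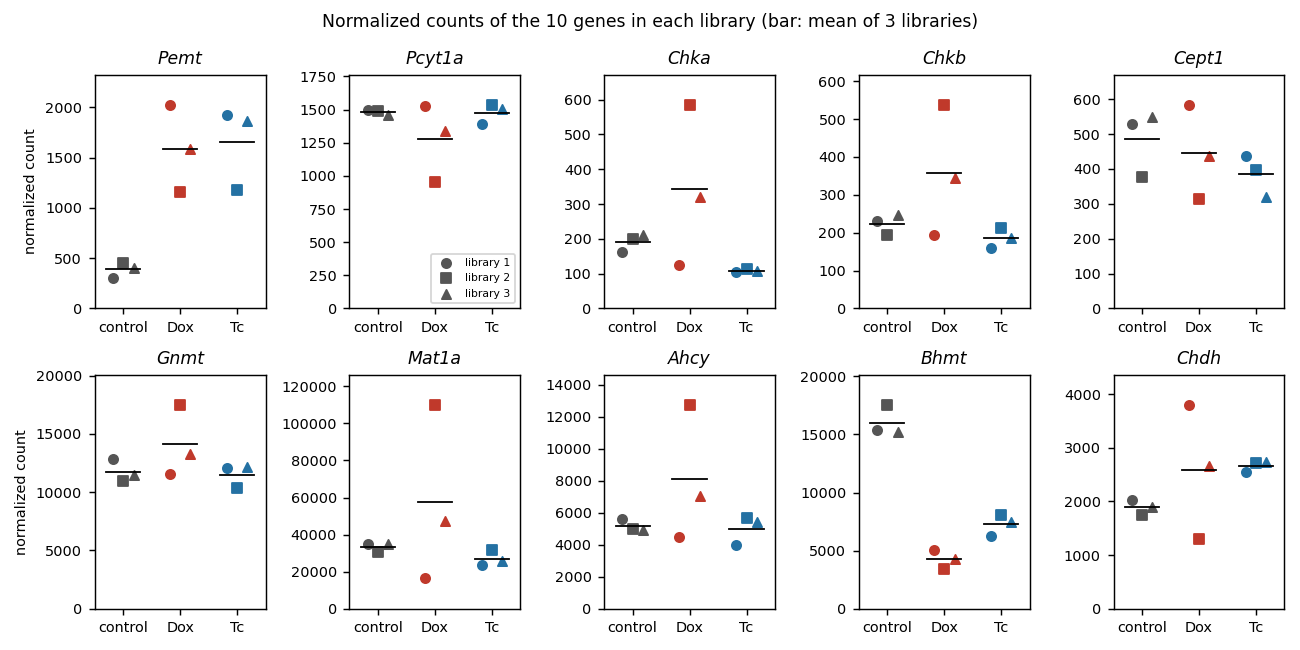
Normalized counts of the 10 genes (y axes, linear, each starting at 0) in control, Dox and Tc libraries (x axes). Circles, squares and triangles are libraries 1, 2 and 3, and bars are means of 3 libraries. Pemt stands between 1155 and 2022 in the 6 drug libraries, above the control range of 306 to 452, and Bhmt stands below its control range in all 6, while the Dox libraries of Mat1a, Ahcy, Chka and Chkb spread to both sides of the controls.

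Pemt was set against the CDP-choline route through Pcyt1a. Pcyt1a encodes the enzyme that makes CDP-choline, the rate-limiting step of that route. Per kilobase of exon, the ratio of Pemt to Pcyt1a was 0.72 to 1.07 in the control libraries. It was 4.18 to 4.66 with Dox and 2.71 to 4.87 with Tc, so the ratio was above the control range in all 6 drug libraries. The ratio contains Pemt, for which the gene was chosen, and is a description. At the RNA level, the median control value per kilobase was 192 normalized counts for Pemt and 201 for Pcyt1a.

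The Pemt gene, ENSMUSG00000000301, spans chr11:59970614-60046489 on the minus strand and shares no exon bases with another gene. The 3 nearest tested protein-coding genes on each side were compared to see whether the region as a whole moved. These were Nt5m, Med9 and Rasd1 on one side and Rai1, Srebf1 and Tom1l2 on the other. In the limma fit of all 9 libraries, none of the 6 was differentially expressed with either drug, that is none had a fold change over 2 with an adjusted p under 0.05. The smallest adjusted p was 0.242 with Dox, for Tom1l2, and 0.341 with Tc, for Rasd1. Nt5m, Med9 and Rai1 differed from the controls by 0.40 or less on the log2 scale with either drug. Rasd1, a small GTPase inducible by glucocorticoids, had 77.3, 44.2 and 49.6 normalized counts in the controls, 3.2, 81.7 and 27.3 with Dox, and 3.9, 12.6 and 8.4 with Tc. Its Tc libraries lay below the controls, while its Dox libraries lay on both sides. DESeq2 on 9 libraries called Rasd1 with Tc (-2.78, adjusted p = 0.0467), and without libraries 3 its adjusted p was 1. Srebf1, the transcription factor of fatty acid synthesis, had 1362, 2304 and 1988 normalized counts in the controls, 8268, 580 and 5171 with Dox, and 4130, 3924 and 4329 with Tc. Its 3 Tc libraries and Dox libraries 1 and 3 were above the controls and Dox library 2 was below them. The Srebf1 differences were 0.66 with Dox (adjusted p = 0.619) and 1.16 with Tc (adjusted p = 0.652). Without Dox library 2, Srebf1 differed by 1.83 with Dox (adjusted p = 0.00347) and by 1.16 with Tc (adjusted p = 0.0228), both past the thresholds. With only the controls and Tc in the limma fit, Rasd1 (adjusted p = 0.0126) and Srebf1 (adjusted p = 0.0140) were called with Tc.

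**Figure D2:**
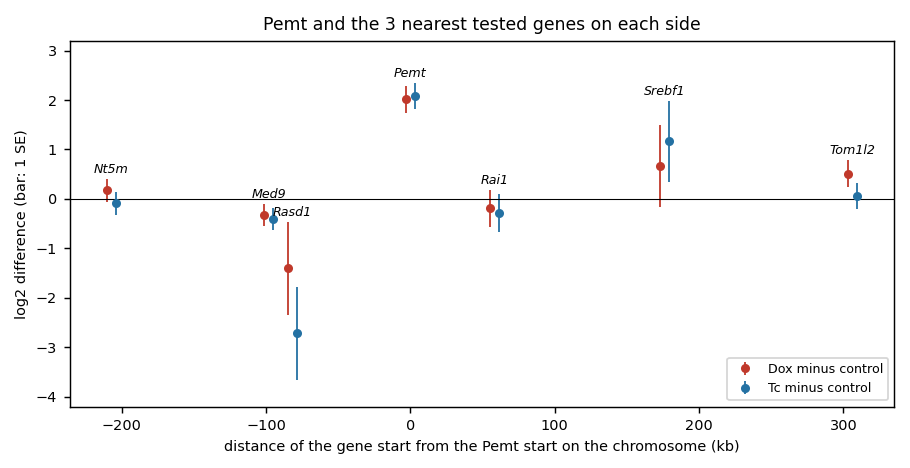
Log2 difference from the controls (y axis, with bars of 1 SE) for Pemt and the 3 nearest tested genes on each side, by distance of their start from the Pemt start in kb (x axis). The Pemt start here is that of the GENCODE gene, at chr11:60046489. Red points are Dox and blue points Tc. Pemt stands at 2.01 and 2.08, and Nt5m, Med9 and Rai1 stand within 0.40 of 0.

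The 5 genes whose levels followed those of Pemt most closely over the 9 libraries were Sipa1l2 (Pearson r = 0.992), Cycs (r = 0.974), Creb3l3 (r = 0.973), 1190002N15Rik (r = 0.968) and Ecsit (r = 0.968). They were ranked among 9379 genes averaging 50 normalized counts or more. Over the 6 libraries numbered 1 and 2 the values were 0.998, 0.983, 0.969, 0.964 and 0.980. These libraries share their groups, so the correlations describe the ranking and carry no test. Cycs encodes cytochrome c, Creb3l3 a liver transcription factor of lipid metabolism, and Ecsit a protein of mitochondrial complex I assembly. The changes of all 5 were smaller than that of Pemt: with Dox the largest was 0.87 on the log2 scale, for 1190002N15Rik, and with Tc it was 0.99, for the same gene. Creb3l3 had 1829, 1773 and 1802 normalized counts in the controls, 2840, 2306 and 2682 with Dox, and 2867, 2506 and 3021 with Tc. Its drug libraries were thus all above its controls, as were those of each of the 5 genes. All were picked for likeness to Pemt, so this is no separate result. Among the other 9 genes of the group, Bhmt had the lowest r with Pemt (r = -0.82 over 9 libraries and -0.81 over the 6). This r spans the groups, and Pemt was chosen by its group differences. Within groups the order was mixed. With Dox both genes were highest in library 1 and lowest in library 2, and in the controls both were highest in library 2. With Tc, Pemt was highest and Bhmt lowest in library 1.

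The CDP-choline route did not pass the test with either drug in any of its members. Pcyt1a had 1496, 1491 and 1462 normalized counts in the controls, 1527, 957 and 1341 with Dox, and 1393, 1534 and 1503 with Tc. Only Dox library 2 stood clearly apart, below the rest. The Pcyt1a differences from the controls were -0.24 ± 0.17 on the log2 scale with Dox (limma adjusted p = 0.370) and -0.01 ± 0.17 with Tc (adjusted p = 0.994; 95% interval -0.40 to 0.38). Cept1, the choline and ethanolamine phosphotransferase, ranged from 378 to 549 normalized counts in the controls, 313 to 583 with Dox and 320 to 437 with Tc, so the groups overlapped. Its differences were -0.15 with Dox (adjusted p = 0.709; 0.08 without Dox library 2) and -0.33 with Tc (adjusted p = 0.681). Cept1 shares 24.7% of its exon bases with Dennd2d on the opposite strand, and the strand setting of the counting is not given in the sources used here.

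The choline kinases, which open the route, were the members of it that varied most. Chka had 161, 200 and 211 normalized counts in the controls, 125, 584 and 320 with Dox, and 104, 113 and 109 with Tc. All Tc libraries were below the controls, whereas Dox library 1 was below and Dox libraries 2 and 3 were above them. The difference of Chka from the controls was 0.59 ± 0.46 with Dox (limma adjusted p = 0.416) and -0.79 ± 0.46 with Tc (adjusted p = 0.562). Without Dox library 1, Chka differed by 1.19 with Dox (adjusted p = 0.0166) and was differentially expressed. Dox and Tc differed by 1.39 ± 0.46 for Chka (Dox minus Tc; 95% interval 0.35 to 2.43), which did not pass the limma test (adjusted p = 0.164). The Chka difference between the drugs did pass without Dox library 1 (1.98, adjusted p = 0.00899) and with DESeq2 on recovered reads of all 9 libraries (1.66, adjusted p = 0.00974), and it did not pass with DESeq2 without libraries 3 (1.70, adjusted p = 0.622). Chkb, the second choline kinase, had 232, 193 and 247 normalized counts in the controls, 193, 537 and 345 with Dox, and 160, 211 and 187 with Tc. As for Chka, Dox library 2 was the highest. The Chkb differences were 0.56 with Dox (adjusted p = 0.281), -0.27 with Tc (adjusted p = 0.821) and 0.83 between Dox and Tc (adjusted p = 0.201; 1.21 and adjusted p = 0.0175 without Dox library 1). Chkb shares 50.7% of its exon bases with the readthrough gene Gm44502, so its count is uncertain. Chka was the lower of the pair per kilobase, with a median of 16.6 normalized counts in the controls against 75.7 for Chkb.

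In the methionine cycle, Mat1a, Ahcy and Gnmt did not pass the limma test of all 9 libraries, and the Dox libraries of each lay apart from one another. Mat1a had 35181, 30364 and 34679 normalized counts in the controls. It had 16708, 109717 and 47126 with Dox, and 23650, 31818 and 25733 with Tc. Dox library 1 was below every control and Dox library 2 was above every control. The Mat1a difference was 0.41 ± 0.58 with Dox (limma adjusted p = 0.666) and -0.31 ± 0.58 with Tc (adjusted p = 0.891). Leaving out Dox library 2 turned the sign of the Dox difference, to -0.25. Between the drugs, Mat1a differed by 0.72 ± 0.58 (adjusted p = 0.457), and by 1.42 without Dox library 1 (adjusted p = 0.0384). Ahcy had 5585, 4996 and 4928 normalized counts in the controls, 4503, 12714 and 7027 with Dox, and 3995, 5652 and 5396 with Tc. Its Dox libraries were ordered as those of Mat1a. The Ahcy differences were 0.52 ± 0.34 with Dox (adjusted p = 0.340) and -0.06 ± 0.34 with Tc (adjusted p = 0.971). Gnmt, the abundant glycine methyltransferase, varied least of these 3, with 10951 to 12850 normalized counts in the controls, 11602 to 17448 with Dox and 10326 to 12154 with Tc. Its differences were 0.24 ± 0.20 with Dox (adjusted p = 0.447) and -0.03 ± 0.20 with Tc (adjusted p = 0.975; 95% interval -0.49 to 0.43).

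Mat2a, the form of the synthetase that is low in adult hepatocytes, was differentially expressed with Dox. It had 332, 280 and 309 normalized counts in the controls, 548, 1143 and 758 with Dox, and 505, 348 and 422 with Tc. All 6 drug libraries were above the controls. The Mat2a difference was 1.34 ± 0.26 with Dox (limma adjusted p = 0.0203) and 0.45 ± 0.26 with Tc (adjusted p = 0.553). Without libraries 3, the Dox difference of Mat2a was 1.37 with a limma adjusted p of 0.559 and 1.46 with a DESeq2 adjusted p of 0.131. The limma call was also lost without any of control libraries 1 to 3 or Dox library 3 (adjusted p from 0.0593 to 0.0868). Per kilobase, the ratio of Mat1a to Mat2a was 137 to 145 in the controls. It was 39.5, 124 and 80.4 in Dox libraries 1 to 3 and 60.6, 118 and 78.9 in Tc libraries 1 to 3. All 6 ratios were below the control range, those of library 1 by the most.

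In choline oxidation, Bhmt fell with Dox while Chdh did not pass the test. Bhmt, ENSMUSG00000074768 at chr13:93616675-93637961, had 15352, 17503 and 15169 normalized counts in the controls. With Dox it had 5085, 3406 and 4272, and with Tc it had 6270, 8072 and 7463. The 3 groups did not overlap, with Dox lowest and Tc between. The Bhmt difference was -1.93 ± 0.19 on the log2 scale with Dox, 3.8-fold lower than the controls (limma adjusted p = 0.00503), and it kept a DESeq2 adjusted p of 5.07e-05 without libraries 3. In the limma fit without libraries 3 it was -1.98 (95% interval -2.86 to -1.10; adjusted p = 0.559). With Tc, Bhmt differed by -1.14 ± 0.19, or 2.21-fold lower, which did not pass (limma adjusted p = 0.0746) although DESeq2 on the recovered reads of all 9 libraries called it (adjusted p = 1.48e-06). Without libraries 3 the Tc difference was -1.20 with a DESeq2 adjusted p of 0.320. It passed the limma test without Dox library 1 (adjusted p = 0.0454) and without Dox library 2 (adjusted p = 0.00563). The drugs differed for Bhmt by -0.78 ± 0.19 (Dox minus Tc; 95% interval -1.23 to -0.34; adjusted p = 0.113). Hepatocyte markers summed to a mean 0.448 times that of the controls with Dox and 0.71 times with Tc, a sum that is mostly Alb. Cps1, of the same list, went the other way with Dox. It had 62020, 127213 and 80945 normalized counts, above its control range of 47780.5 to 58689.8. The part of the markers in the Bhmt values was not tested.

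Chdh, the mitochondrial choline dehydrogenase, had 2023, 1738 and 1899 normalized counts in the controls, 3790, 1298 and 2663 with Dox, and 2543, 2722 and 2730 with Tc. All Tc libraries were above the controls, while Dox library 2 was below them. The Chdh differences were 0.32 ± 0.33 with Dox (limma adjusted p = 0.542) and 0.50 ± 0.33 with Tc (adjusted p = 0.619). Without Dox library 1 the Dox difference was -0.02, so its sign rested on that library. Mtr, methionine synthase, is the folate-dependent enzyme for the reaction that Bhmt drives with betaine. Per kilobase, the ratio of Bhmt to Mtr was 121 to 156 in the controls, 35.6 to 40.4 with Dox and 46.4 to 64.3 with Tc.

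Counted together, 1 of the 9 genes other than Pemt, Bhmt, was called with Dox by limma over all 9 libraries, and it was lower. Of all 12100 genes, 1.14% were called higher and 3.86% lower in that comparison. With Tc, 0 of the 9 passed, against 0.0413% of all genes higher and 0.124% lower. Without libraries 3, 1 of the 9, Bhmt, had an unadjusted p under 0.05 with Tc in limma, beside 239 of all 12100 genes. DESeq2 on all 9 libraries called 1 of the 9 with Tc, also Bhmt, which was lower, beside 124 of all genes called lower. Between Dox and Tc, limma called 0 of all 10 genes, against 0.0413% of all genes higher and 0.174% lower. DESeq2 on all 9 libraries called 1 between the drugs, Chka, which was higher with Dox, beside 295 of all genes called higher. At an unadjusted p under 0.05 without libraries 3, limma counted 0 of the 10 between the drugs, beside 454 of all genes. Without libraries 3, limma called 0.0% of all genes in each of the 3 comparisons, and DESeq2 called 1.19% with Dox, 0.0744% with Tc and 0.264% between the drugs. In that DESeq2 fit Bhmt was called with Dox and none of the 9 with Tc.

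Groups without overlap are common in these data. With Dox, the libraries of 16.1% of all genes were wholly above and of 17.1% wholly below the controls, and with Tc these shares were 15.8% and 14.9%. Of the 9 genes other than Pemt, 0 were wholly above and 1, Bhmt, wholly below with Dox. With Tc, 1 was wholly above, Chdh, and 2 wholly below, Bhmt and Chka. Between Dox and Tc, Chka was wholly higher and Bhmt wholly lower with Dox, in a comparison where 12.2% and 12.4% of all genes did so.

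The Dox libraries spread more than the others for these genes, as they did over all genes. Libraries 1 and 2 of Dox lay on opposite sides of the control range for 7 of the 10 genes, against 2 of 10 for Tc. They were over 2-fold apart for 5 of the 10, namely Mat1a (6.57-fold), Chka (4.63-fold), Chdh (2.92-fold), Ahcy (2.82-fold) and Chkb (2.78-fold), and for 0 of 10 in the controls and 0 of 10 with Tc. Of all 12100 genes, 4264 were over 2-fold apart with Dox, 586 in the controls and 1022 with Tc. Opposite sides were not counted over all genes, so that count is not read as a trait of these 10. The median absolute log2 difference between libraries 1 and 2 was 1.19 over the 10 genes with Dox, beside 0.70 over all genes. In the controls these medians were 0.22 and 0.22, and with Tc 0.29 and 0.26. Mat1a, Ahcy, Chka, Chkb and Gnmt were higher in Dox library 2 than in Dox library 1, and Pemt, Pcyt1a, Cept1, Chdh and Bhmt were lower there. Dox library 3 lay between libraries 1 and 2 for 10 of 10 genes, and for 4139 of the 4264 genes over 2-fold apart. A library near a mixture of the other 2 lies between them.

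**Figure D3:**
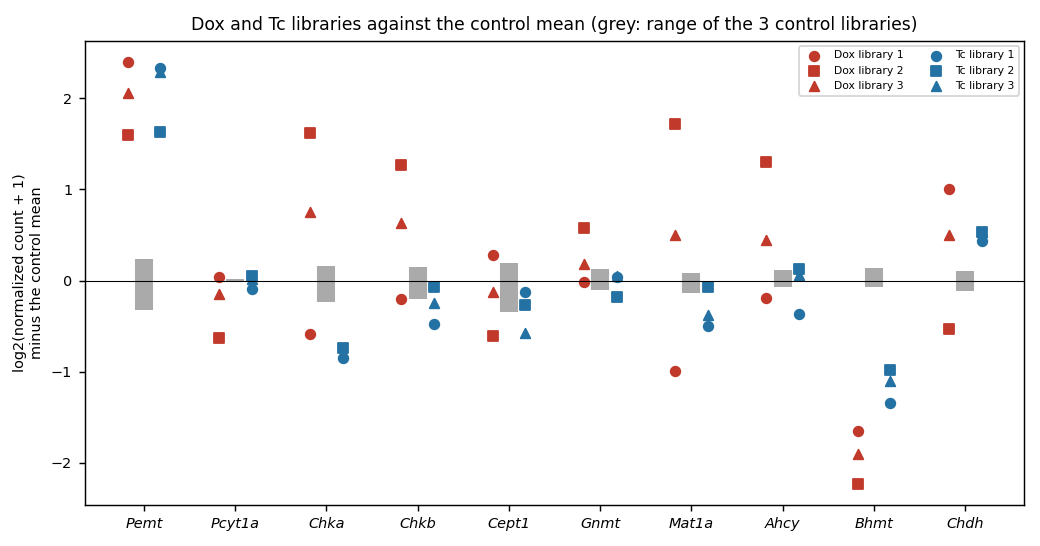
Each Dox (red) and Tc (blue) library as log2(normalized count + 1) minus the control mean (y axis) for the 10 genes (x axis). Grey bars are the range of the 3 control libraries, and circles, squares and triangles are libraries 1, 2 and 3. Pemt and Bhmt stand outside the grey range on a single side in all 6 drug libraries. For 7 of 10 genes Dox libraries 1 and 2 stand on opposite sides of it, which was not counted over all genes.

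The wider pathway was read from 11 lists of 103 genes, of which 94 passed the filter. Besides Pemt, 4 of 93 genes were called higher with Dox (Etnppl, Mthfd1l, Mat2a and Gde1) and 5 lower (Bhmt, Gatm, Fpgs, Folr2 and Lpcat2). Their shares stand beside 1.14% and 3.86% over all genes. The median log2 difference of the 93 genes was -0.14, beside 0.00 over all genes. With Tc, 0 of the 93 were called by limma. Without libraries 3, 5 had an unadjusted p under 0.05 in limma, beside 239 of all 12100 genes. DESeq2 on 9 libraries called 1 higher and 2 lower with Tc, beside 67 and 124 of all genes. The median of the 93 genes was -0.03 with Tc, beside 0.00 over all genes. Between Dox and Tc, 1 of the 93 was called, Etnppl, and their median was -0.20, beside -0.02 over all genes. Without libraries 3, limma called 0 of the 93 with Dox, and 12 had an unadjusted p under 0.05, beside 1040 of all 12100 genes. DESeq2 without libraries 3 called 2 higher and 3 lower with Dox, beside 43 and 101 of all genes. The 9 calls with Dox became 5 without control library 2, 2 without control library 3, 19 without Dox library 1, 14 without Dox library 2 and 5 without Dox library 3. Calls over all 12100 genes moved with them, from 605 to 124, 33, 1500, 1102 and 87 in the same order. With Tc, the 0 calls became 2 without Dox library 1, 4 without Dox library 2 and 4 with only the controls and Tc in the fit, and stayed at 0 without any other single library. Over all genes, the calls with Tc went from 20 to 46, 221 and 276 in the fits where the pathway count rose. Between the drugs, the single call became 18 without Dox library 1, 2 without Dox library 2 and 0 without any of control libraries 1 to 3, Dox library 3 and Tc libraries 2 and 3. The counts over all genes in these fits between the drugs are not given here.

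Etnppl showed the largest change of the lists and the clearest difference between the drugs. It encodes ethanolamine-phosphate phospho-lyase, and stood in the list of phosphatidylcholine breakdown, although its substrate comes from ethanolamine lipids. It had 1431, 862 and 1105 normalized counts in the controls, 4960, 14227 and 8051 with Dox, and 1042, 1143 and 1105 with Tc. Every Dox library was above every control and Tc library, and the Tc libraries lay within the control range. The Etnppl difference was 2.90 ± 0.35 with Dox (limma adjusted p = 0.00744), -0.02 ± 0.35 with Tc (adjusted p = 0.993) and 2.92 ± 0.35 between the drugs (95% interval 2.12 to 3.71; adjusted p = 0.0487). Without libraries 3, Etnppl differed between the drugs by 2.94 with a limma adjusted p of 0.755 and by 3.13 with a DESeq2 adjusted p of 0.000633. Blocking on the replicate number gave an adjusted p of 0.101 between the drugs. Etnppl passed between the drugs in 8 of 22 settings, with a log2 difference from 2.53 to 3.29 over all 22. Against the controls it missed the threshold without control library 3 (adjusted p = 0.0504). Gde1, a glycerophosphodiesterase of the same list, differed by 1.16 with Dox (adjusted p = 0.0174) and 0.89 with Tc (adjusted p = 0.172). Its Dox call was lost without control library 2 or 3 or Dox library 3 (adjusted p from 0.0699 to 0.0754), and without Dox library 2 its difference, 0.96, was under the fold limit.

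Gatm, the first enzyme of creatine synthesis, a large user of methyl groups, fell with Dox. It makes guanidinoacetate, which Gamt methylates to creatine. Gatm had 256, 261 and 271 normalized counts in the controls, 64.2, 23.0 and 52.8 with Dox, and 123, 133 and 123 with Tc. The 3 groups did not overlap, with Dox lowest and Tc between. Its difference was -2.59 ± 0.32 with Dox (limma adjusted p = 0.00744), -1.05 ± 0.32 with Tc (adjusted p = 0.281) and -1.54 between the drugs (adjusted p = 0.0878). DESeq2 on 9 libraries called Gatm with Tc (-1.06, adjusted p = 0.0124) and between the drugs (-1.43, adjusted p = 0.000293), and without libraries 3 its adjusted p was 1 and 0.413. Without Dox library 2, limma called it with Tc (adjusted p = 0.00368) and between the drugs (-1.10, adjusted p = 0.00754), and without Dox library 1 between the drugs (-1.82, adjusted p = 0.0143). Without libraries 3, Gatm differed from the controls by -2.71 with Dox (limma adjusted p = 0.559, DESeq2 adjusted p = 0.00147), and its adjusted p was 0.0504 without control library 3. Gamt had 1770, 1494 and 1575 normalized counts in the controls, 1385, 41.4 and 860 with Dox, and 1773, 1290 and 1697 with Tc. Dox library 2 alone held most of its difference of -2.12 (adjusted p = 0.228), which was -0.56 without that library. Of the 8 methyl-acceptor genes, including Gnmt, limma called 0 higher and 1 lower with Dox and 0 with Tc, where DESeq2 on 9 libraries called Gatm lower. Tpmt, the thiopurine methyltransferase, differed from the controls by 1.14 with Tc (adjusted p = 0.471), the largest value of that list. Tpmt was called with Tc in 3 of 22 other settings, with log2 differences from 0.98 to 1.30 over all 22. With Dox it was called in 1 of 22, with log2 differences from -0.13 to 1.10.

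Among the 22 tested genes of folate one-carbon metabolism, which feeds methyl groups to methionine synthase, limma called 1 higher and 2 lower with Dox and 0 with Tc, where DESeq2 on 9 libraries called 1 higher, Mthfd1l. Mthfd1l, the mitochondrial formate-producing synthetase, had 15.9, 23.0 and 22.9 normalized counts in the controls, 57.9, 90.9 and 63.3 with Dox, and 54.7, 66.5 and 55.6 with Tc. Both drugs were wholly above the controls. Its difference was 1.72 ± 0.24 with Dox (limma adjusted p = 0.00937) and 1.49 ± 0.24 with Tc (adjusted p = 0.0695), with a DESeq2 adjusted p without libraries 3 of 0.0365 and 0.604. With Tc, Mthfd1l was called by DESeq2 on 9 libraries (1.52, adjusted p = 0.000501) and by limma without Dox library 1 (adjusted p = 0.0458) or Dox library 2 (adjusted p = 0.00763). Without control library 3 its limma adjusted p with Dox was 0.0504. Fpgs, which adds glutamates to folate and so retains it in cells, had 1396, 1367 and 1452 normalized counts in the controls, 745, 592 and 635 with Dox, and 771, 837 and 839 with Tc. It was lower in all 6 drug libraries. Its difference was -1.10 ± 0.12 with Dox (limma adjusted p = 0.00543; DESeq2 adjusted p = 0.0276 without libraries 3; -0.93, under the fold limit, with every library scaled to the same total) and -0.78 ± 0.12 with Tc (limma adjusted p = 0.0593). Folr2, a folate receptor of macrophages, differed by -1.96 with Dox (limma adjusted p = 0.0123; DESeq2 adjusted p = 0.0691 without libraries 3) and -1.10 with Tc (adjusted p = 0.238). Its Dox call was lost without control library 2 or 3 or Dox library 3 (adjusted p from 0.056 to 0.0678). The 7 Kupffer cell markers, of which none was at 0 in every library, summed to 7128 to 11536 normalized counts in the controls, 1999 to 5410 with Dox and 3410 to 6706 with Tc, and their part in the Folr2 value was not tested. Lpcat2, a lysophosphatidylcholine acyltransferase of inflammatory cells, was also lower where these markers were lower, and their part in its value was not tested. It differed by -1.83 with Dox (adjusted p = 0.0361) and -0.79 with Tc (adjusted p = 0.524), and its Dox call was lost without any of control libraries 1 to 3, Dox library 3 and Tc library 3 (adjusted p from 0.0702 to 0.130).

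In the remaining lists, limma with all 9 libraries called no gene other than the members with Dox or with Tc. Of the 7 genes of choline oxidation to glycine, 6 were below 0 on the log2 scale with Dox, with a median of -0.61, beside 0.00 over all genes, and 1, Bhmt, was called. Of the 7 transsulfuration and taurine genes, limma called 0, and DESeq2 on 9 libraries called 1 higher, Cth, with Dox and between the drugs. Cth, cystathionine gamma-lyase, ranged from 1959 to 3631 normalized counts in the controls, 2819 to 13807 with Dox and 2026 to 2439 with Tc. Its difference between the drugs was 1.53 ± 0.50 (limma adjusted p = 0.163). The DESeq2 values of Cth were 1.42 with Dox (adjusted p = 0.0268) and 1.81 between the drugs (adjusted p = 0.00709), with an adjusted p without libraries 3 of 0.416 and 0.524. Without Dox library 1, limma called it at 1.76 (adjusted p = 0.0153) and 2.11 (adjusted p = 0.0156). Of the 6 tested choline transporters, limma called 0, with Slc44a3 at -1.22 (adjusted p = 0.0957) and Flvcr2 at 1.47 (adjusted p = 0.230) between Dox and Tc. Slc44a3 was called between the drugs by DESeq2 on 9 libraries (-1.14, adjusted p = 0.00363; 0.682 without libraries 3) and by limma without Dox library 1 (-1.50, adjusted p = 0.0122). The 7 genes of CDP-ethanolamine and phosphatidylserine synthesis, which supply the substrate of PEMT, stood at medians of -0.17 (Dox) and 0.09 (Tc), and limma called 0 with either drug.

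**Figure D4:**
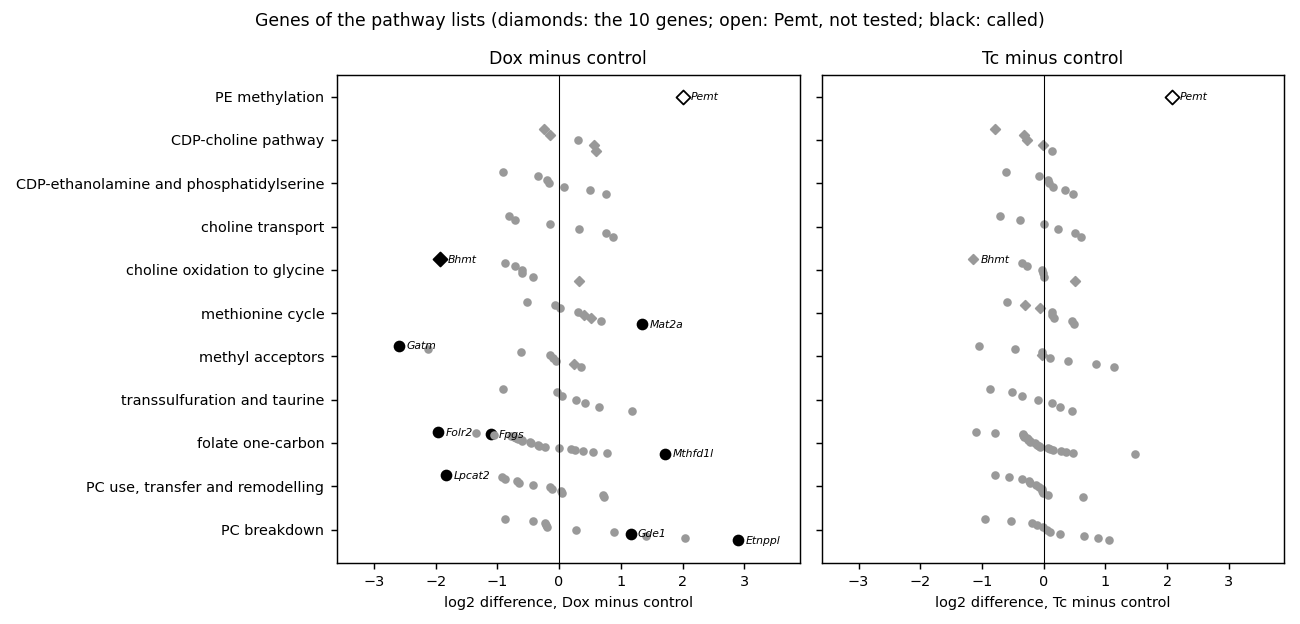
Log2 difference from the controls (x axes) of the 94 tested genes of the 11 pathway lists (y axis), for Dox (left) and Tc (right). Diamonds are the 10 genes of the group, the open diamond is Pemt, which was chosen by its values and carries no test, black symbols passed both thresholds in the limma fit of all 9 libraries, and PC and PE stand for phosphatidylcholine and phosphatidylethanolamine. Etnppl at 2.90 and Gatm at -2.59 mark the ends with Dox, and no gene is black with Tc.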

How the data were processed

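Liver RNA of 3 groups (control, Dox, Tc; 3 libraries each) was sequenced single-end with a directional kit. The authors trimmed the reads with cutadapt, aligned them to mm10 with STAR 2.7.11ac, counted them per gene with HTSeq 2.0.5 and normalized them with DESeq2 1.42.0. The deposited values are a normalized count signal (counts over the size factor of each library). Of 32285 identifiers, 32158 had a symbol. Coordinates are those of GRCm38 (GENCODE and RefSeq).

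limma 3.58.1 (R 4.3.3, trend) was run on log2(normalized count + 1) in a joint model of the 9 libraries. P-values were adjusted by Benjamini-Hochberg over the 12100 genes averaging 10 or more. Genes with a fold change over 2 and an adjusted p under 0.05 were called differentially expressed. Fold changes are on the scale with a pseudocount of 1, which understates changes of low genes, and intervals cover 95%. Whole reads were recovered for 100% of values (within 0.01 of a whole number) and put through edgeR 4.0.16 and DESeq2 1.42.0 as alternatives. The scripts were tested on simulated data with 9 independently drawn libraries. Near mixtures such as libraries 3 were not simulated, so that test does not cover the error rate in these data. Nothing in the labels ties a library to a separate animal, so p-values measure the spread between these libraries. Deviations of same-numbered Dox and Tc libraries were correlated (r = 0.29, 0.32 and 0.18), by the numbers in the sample labels. Since libraries 3 are near mixtures, the 3 values are not independent. No control number paired with a drug number.

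The members and gene lists were chosen with earlier results of these data known, so their counts are no independent support. Named genes were all members, every called gene of the lists, the 3 largest rises and 3 largest falls per comparison among list genes with a mean of at least 50, the 3 nearest tested genes on each side of Pemt, and the 5 genes most like Pemt. The alternatives tried were other pseudocounts, filters on low values, scalings and tools, fits of only the compared groups, a replicate block, no fold limit and each library left out. The tests apply to recovered depths of 7426136 reads and more per library.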

Additional observations from a re-analysis of the deposited data

Results flagged for a closer look

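Etnppl, the phospho-lyase of phosphoethanolamine, stood out because its response differed between the drugs in a direct test. The effect against the shared controls was 2.90 on the log2 scale with Dox and -0.02 with Tc, and the difference between them was 2.92 (limma adjusted p = 0.0487 over all genes, 9 libraries). All 3 Dox libraries were above all 3 Tc libraries. Without libraries 3 the limma adjusted p was 0.755 and the DESeq2 adjusted p 0.000633.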

How the results depend on the processing

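The 9 genes other than Pemt were recomputed under 22 settings in each of 3 comparisons. Of 594 such values, 572 kept their direction and their side of the thresholds, 10 changed sign, 10 passed the thresholds only there and 2 no longer passed. Scaling to the same total gave 0.021 for Cept1 with Dox and 0.11 for Pemt between Dox and Tc, which was 0.019 (limma) and 0.033 (DESeq2) without libraries 3. Bhmt with Dox lost its call without libraries 3 in limma, a fit with fewer samples. The cause of these changes, that of Bhmt included, was not tested.

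The counts of pathway genes in this and the following paragraphs include Pemt, which was chosen by its values. Those called with Dox, 10 with all 9 libraries, were 6 with DESeq2 and 0 with limma without libraries 3. Over all genes, the calls with Dox went from 605 to 144 and 0 in these fits. Pathway genes called with Tc, 1, became 4 with DESeq2, 5 with only the compared groups and 0 with limma without libraries 3. Over all genes, the calls with Tc went from 20 to 191, 276 and 0. Pathway genes called between Dox and Tc, 1, became 5 with DESeq2, which called 295 of all genes higher and 314 lower. They became 0 under each of a pseudocount of 8, a mean of at least 50, the same total, edgeR, only the compared groups and limma without libraries 3.

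With the replicate number as a block and only the compared groups, 0 pathway genes were called with Dox (Bhmt: adjusted p = 0.0837), 6 with Tc and 0 between Dox and Tc. Over all genes, that fit called 5 with Dox and 333 with Tc. With the block over all libraries, 0 pathway genes were called with Tc and 0 between Dox and Tc, where it changed no other call. The control numbers did not pair with those of either drug.

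Leaving out each library in turn, the pathway calls ranged from 2 to 20 with Dox, 0 to 5 with Tc and 0 to 18 between the drugs. Over all genes, the calls with Dox ranged from 33 to 1500 in these fits. The 5 with Tc, without Dox library 2, stood beside 221 of all genes. For log2 differences the ranges were -0.29 to 0.15 for Pemt, -0.047 to 0.40 for Cept1 and -0.52 to 0.25 for Chdh between the drugs. With Dox they were -0.37 to 0.077 for Cept1, -0.019 to 0.75 for Chdh and -0.25 to 1.11 for Mat1a. With Tc they were -0.15 to 0.098 for Ahcy, -0.082 to 0.045 for Gnmt and -0.035 to 0.035 for Pcyt1a. The smallest library held 7426136 reads.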
